A study of Mus musculus with 6 samples.

Results

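The vessel genes described here are 33 genes used as markers of blood and lymphatic endothelium, the cell layer that lines vessels. They are 22 pan-endothelial genes, 4 genes of tip cells, 5 adhesion molecules and 2 lymphatic genes. The members were taken as the non-control probes whose transcript accession carries one of the 33 symbols, which gave 40 probes. Of the 33 genes, 26 had 1 probe and 7 had several, and the probe with the strongest mean signal stood for its gene. All but 1 of the 33, Prox1, passed the filter on dim probes, so 32 of them were among the 16411 genes tested. RNA was measured in skin wounds of male C57/BL6 mice, either wild type (WT) or FoxO1 +/-, that is, carrying 1 intact copy of the gene for the forkhead transcription factor FoxO1. Each mouse received 4 full-thickness excisional wounds in the back skin with a 4 mm punch, and the tissue was cut out with a 6 mm punch on day 3, so a rim of surrounding skin was included. From 3 WT and 3 FoxO1 +/- samples it was labelled with Cy3 from 200 ng of total RNA and hybridised to 1-colour Agilent arrays. The genotype is the only labelled factor that separates the groups. No unwounded skin was analysed here, and no age is given for the mice. The labels do not say in which cells the allele is missing or whether wounds were pooled. They name 3 independent experiments without saying what was repeated, so p-values measure only the spread between these 6 arrays.

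Endothelial cells hold together through cadherin and claudin junctions, carry receptors that read growth factors and flow, and keep their identity through transcription factors of the ETS and SoxF families. During wound repair new capillaries sprout from existing vessels, led by tip cells, while activated endothelium displays selectins and immunoglobulin-type adhesion molecules that capture leukocytes. FoxO1 is known in endothelium as a factor that restrains growth and metabolism, and forkhead factors bind a motif with the core GTAAACA.

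In the FoxO1 +/- wounds, most vessel genes had slightly higher values, and 1 tip cell gene, Esm1, had lower values on all 3 arrays. The difference of means was positive for 28 of the 32 measured members and negative for 4, Esm1, Sox7, Selp and Lyve1, while 53.7% of all genes tested had a higher mean in FoxO1 +/-. The median difference over the 32 members was 0.20 on the log2 scale, against 0.01 over all genes tested. In the slide row that holds both genotypes, which has a single FoxO1 +/- array, that median was 0.10 and 22 of the 32 members were higher. No member passed an adjusted p of 0.05 in limma (Benjamini-Hochberg over all genes tested), a threshold that 0.00609% of all genes passed in either direction. At an unadjusted p under 0.05, limma called 8 members higher in FoxO1 +/-, against 3.42% of all genes, and 1 member lower, against 2.83%. The 3 values of each genotype did not overlap for 10 members that were higher in FoxO1 +/-, against 6.90% of all genes, and for 1 that was lower, against 4.56%. Members share cells and arrays and are not independent, so these counts carry no test. The number without overlap was 17 without WT replicate 2 and 21 without FoxO1 +/- replicate 1, and fewer arrays leave less room for overlap. In whole wound tissue, a different number of endothelial cells and a different amount of RNA per endothelial cell cannot be told apart. With 3 arrays against 3, the exact two-sided permutation test of a single gene cannot give a p below 0.1, the value obtained for each of the 11 members without overlap.

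All 6 arrays belonged to a single slide, read in 1 scan. The 3 WT arrays and FoxO1 +/- replicate 1 occupied the first row of the slide, and FoxO1 +/- replicates 2 and 3 the second row. Between 64.3% and 71.9% of spots were well above background on each array, with the lowest share on FoxO1 +/- replicate 3, and no spot was saturated. Foxo1 had 2 kept probes, and only the brighter is given here. That probe had log2 levels of 2.04, 1.81 and 2.32 in WT and of 1.54, 1.69 and 1.49 in FoxO1 +/-. Its difference was -0.48 (SE 0.14, limma adjusted p = 0.65), lower without overlap. Where the probe lies relative to the altered allele is not stated, so it checks the genotype labels only in part.

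**Figure D1:**
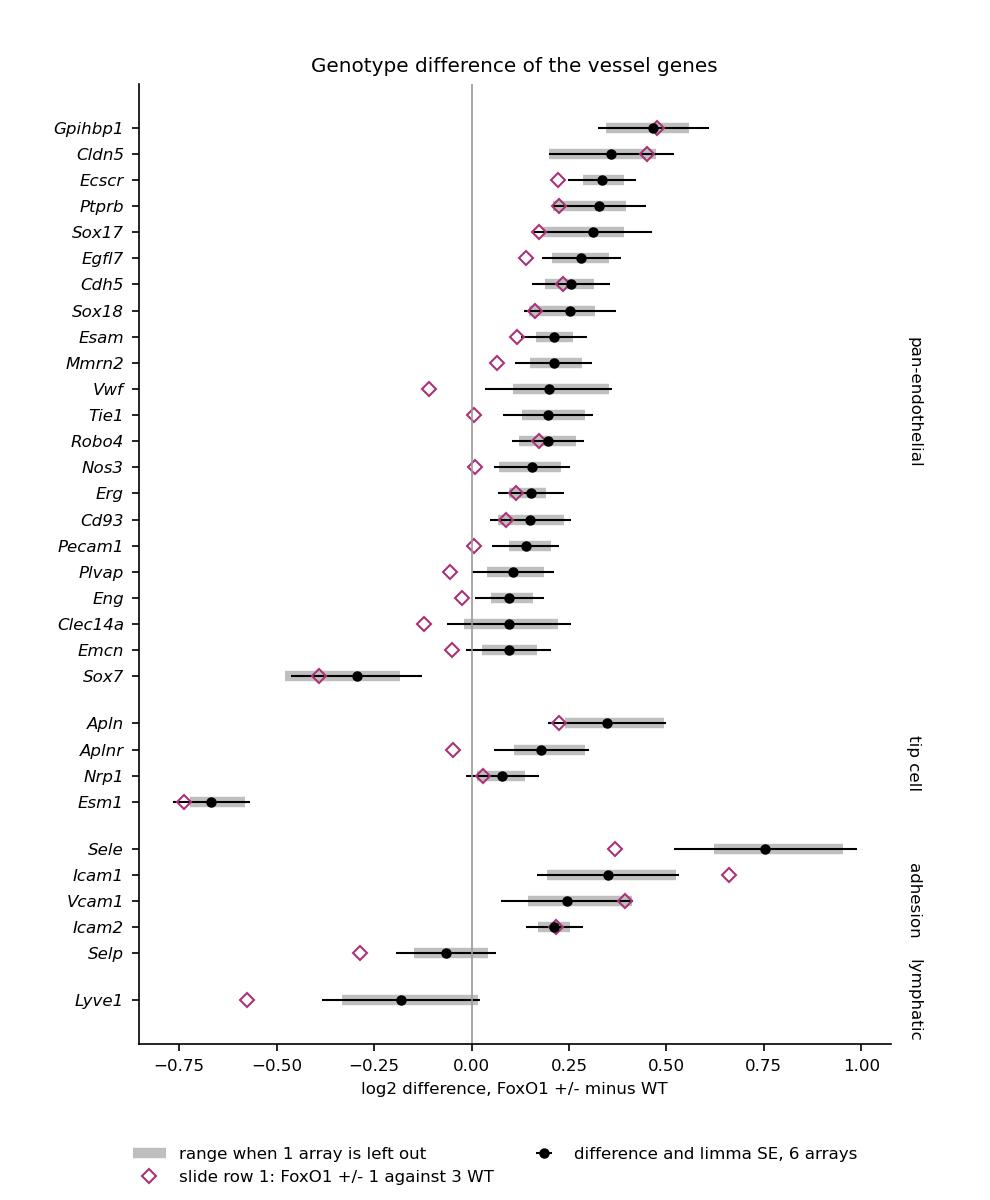
Difference of mean log2 level, FoxO1 +/- minus WT, for the 32 measured vessel genes (horizontal axis, log2 units), ordered within the pan-endothelial, tip cell, adhesion and lymphatic groups. Black points are the limma estimates with 1 SE, grey bars the range when 1 array is left out, and diamonds the first slide row. Esm1 sits farthest to the left at -0.67 and Sele farthest to the right at 0.75.

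For the genes at the ends of the range, the 250 bases before the transcription start are shown, taken from RefSeq (GRCm38.p6), all on the plus strand. Esm1, on chromosome 13 at chr13:113209409-113209658, is shown because it had the largest negative difference, and Sele, at chr1:164047984-164048233, because it had the largest positive one. Icam1, at chr9:21015690-21015939, was the only member, of the 15 with a window, that matched CCGGAA, the only sequence searched for ETS factors. Capitals mark matches to CCGGAA in Icam1 and to the TATA box TATAAA in Sele, on either strand.
Esm1: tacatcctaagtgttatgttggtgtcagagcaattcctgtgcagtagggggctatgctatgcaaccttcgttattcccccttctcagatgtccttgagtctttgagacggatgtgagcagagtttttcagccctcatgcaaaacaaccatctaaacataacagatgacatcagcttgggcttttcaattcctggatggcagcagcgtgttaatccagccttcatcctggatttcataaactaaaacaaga
Sele: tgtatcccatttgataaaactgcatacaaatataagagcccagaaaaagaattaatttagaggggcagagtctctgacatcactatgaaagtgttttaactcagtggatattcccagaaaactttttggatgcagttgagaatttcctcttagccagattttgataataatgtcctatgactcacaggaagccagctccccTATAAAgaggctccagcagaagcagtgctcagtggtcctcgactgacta
Icam1: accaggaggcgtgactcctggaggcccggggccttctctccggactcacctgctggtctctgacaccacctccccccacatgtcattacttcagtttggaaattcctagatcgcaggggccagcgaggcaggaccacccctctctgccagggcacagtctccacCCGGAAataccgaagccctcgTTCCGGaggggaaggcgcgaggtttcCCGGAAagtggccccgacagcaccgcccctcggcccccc

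The table of promoters held 20 such windows for 15 of the 33 genes, and 4 motifs, chosen after the expression values had been seen, were searched on both strands. The forkhead sequence GTAAACA was in none of the 20 windows, against 3.17% of all 32851 windows of the same length. CCGGAA was in 1 of the 20, against 12.0% of all windows, with 3 matches in Icam1 that lie 86 to 81, 65 to 60 and 39 to 34 bases before the start. TATAAA was in 3 of the 20, against 12.4%, for Sele, Erg and Prox1, and in Sele it lies 49 to 44 bases before the start. The NF-kappaB consensus GGGRNNYYCC (R for A or G, Y for C or T, N for any base) was in 0 of the 20, against 7.25%. Sites that depart from these 4 patterns, shorter or looser forms included, were not searched for, so the counts do not cover them. A match is a stretch of letters and not a measured site, and nothing was measured here at these windows.

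Among genes of junctions and of the vessel wall, all 8 had higher means in FoxO1 +/-. Their median difference was 0.23, and 0.17 within the first slide row. Of them, 4 were higher without overlap between genotypes, against 6.9% of all genes. Levels below are log2 values relative to the 75th percentile of the array, listed for replicates 1 to 3. Gpihbp1, which holds lipoprotein lipase on the luminal face of capillaries, had levels of 2.34, 1.99 and 2.37 in WT and of 2.71, 2.87 and 2.52 in FoxO1 +/-. All FoxO1 +/- values lay above all WT values, and WT replicate 2 was the lowest. Its means were 2.23 ± 0.21 for WT and 2.70 ± 0.18 for FoxO1 +/- (SD, n = 3 each). That difference of 0.47 (SE 0.14) was a ratio of 1.38, with a limma adjusted p of 0.659, and it was the largest among the pan-endothelial genes. Against FoxO1 +/- replicate 1 alone, within the first slide row, the Gpihbp1 difference was 0.48.

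Ecscr, a surface protein of endothelial cells that affects migration, had levels of 2.71, 2.82 and 2.65 in WT and of 2.95, 3.08 and 3.16 in FoxO1 +/-. The groups were 0.13 apart at their nearest values. Its means of 2.73 ± 0.09 and 3.06 ± 0.11 (SD, n = 3 each) gave a difference of 0.33 (SE 0.09, limma adjusted p = 0.584), the smallest adjusted p among the pan-endothelial genes, and 0.22 within the first slide row. Cdh5, which encodes VE-cadherin, the adherens junction protein of endothelium, had levels of 2.09, 1.88 and 2.06 against 2.25, 2.40 and 2.15. The lowest FoxO1 +/- value exceeded the highest WT value by 0.06. The Cdh5 difference was 0.26 (SE 0.10, limma adjusted p = 0.798), and 0.24 within the first slide row. Esam, a cell adhesion molecule of endothelial tight junctions, had levels of 2.02, 1.92 and 2.11 in WT and of 2.13, 2.31 and 2.25 in FoxO1 +/-. Here the gap between the genotypes was only 0.02, and the difference was 0.21 (SE 0.09, limma adjusted p = 0.798), or 0.12 within the first slide row.

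Cldn5, the main claudin of endothelial tight junctions, had levels of 1.19, 0.77 and 1.32 in WT and of 1.55, 1.52 and 1.30 in FoxO1 +/-. FoxO1 +/- replicate 3 fell inside the WT range, so the groups overlapped, and WT replicate 2 was low. Its difference of 0.36 (SE 0.16, limma adjusted p = 0.826) was 0.20 when WT replicate 2 was left out and 0.47 when WT replicate 3 was. The other 3 genes of this group overlapped between genotypes. Pecam1, the adhesion protein CD31, differed by 0.14 (SE 0.09), Plvap, which forms the diaphragms of fenestrae and caveolae, by 0.11 (SE 0.11), and the sialomucin Emcn by 0.10 (SE 0.11). Within the first slide row Pecam1 gave 0.0075, and Plvap and Emcn turned, to -0.06 and -0.05.

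**Figure D2:**
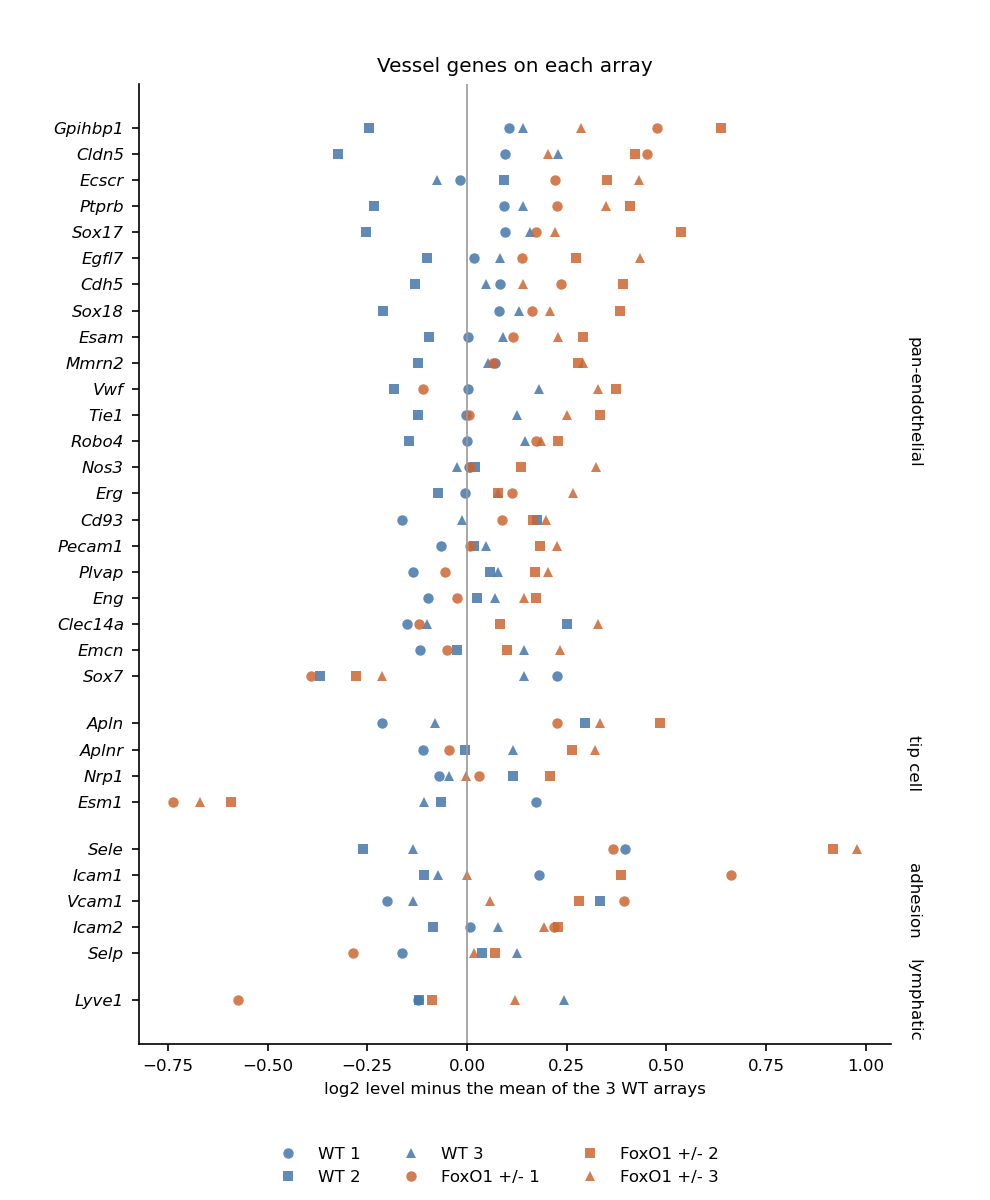
Log2 level minus the gene's mean over the 3 WT arrays (horizontal axis, log2 units) for the 32 measured vessel genes, with 1 point per array (WT blue, FoxO1 +/- orange, shape for the replicate). FoxO1 +/- replicates 2 and 3 hold the highest value of 13 and 12 members, and WT replicate 2 holds the lowest value of 16.

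All 10 receptors and secreted proteins of endothelium had higher means in FoxO1 +/-. Their median difference was 0.20, and 0.036 within the first slide row. The values of 3 were higher without overlap, against 6.9% of all genes. Ptprb, the phosphatase VE-PTP that acts on VE-cadherin and on the receptor Tie2, had levels of 3.27, 2.94 and 3.32 in WT and of 3.40, 3.58 and 3.52 in FoxO1 +/-. The genotypes were separate, with WT replicate 2 again the lowest. The Ptprb difference was 0.33 (SE 0.12, limma adjusted p = 0.782), and the second Ptprb probe gave 0.41, also without overlap. Within the first slide row the main probe gave 0.22. Egfl7, a secreted protein of the vessel matrix and 1 of the 2 members with the strongest probe signal, had levels of 4.39, 4.27 and 4.45 against 4.51, 4.64 and 4.80. It differed by 0.28 (SE 0.10, limma adjusted p = 0.769) without overlap, and by 0.14 within the first slide row. Robo4, a guidance receptor that stabilises vessels, had levels of 2.51, 2.36 and 2.65 in WT and of 2.68, 2.74 and 2.69 in FoxO1 +/-. The gap was 0.03, and the WT arrays were more spread (SD 0.15) than the FoxO1 +/- arrays (SD 0.03). The Robo4 difference was 0.20 (SE 0.09, limma adjusted p = 0.826), and 0.12 when WT replicate 2 was left out.

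Cd93, a C-type lectin receptor of sprouting endothelium, had levels of 5.14, 5.48 and 5.30 in WT and of 5.40, 5.47 and 5.51 in FoxO1 +/-, and the groups overlapped. Its strong signal is a property of the probe as much as of the transcript, and levels are not compared between genes. The Cd93 difference was 0.15 (SE 0.10). Mmrn2, a matrix ligand of Cd93 and of Clec14a, differed by 0.21 (SE 0.10), and Clec14a itself by 0.10 (SE 0.16). The second Clec14a probe gave 0.12 (SE 0.31), but it was dim and well above background on only 2 of the 3 FoxO1 +/- arrays. For the orphan receptor Tie1 the difference was 0.20 (SE 0.12), for Vwf, the clotting protein stored in endothelial granules, 0.20 (SE 0.16), for Nos3, the endothelial nitric oxide synthase, 0.15 (SE 0.10), and for Eng, a co-receptor of the TGF-beta family, 0.10 (SE 0.09). The second Nos3 probe gave 0.22 and the second Plvap probe 0.19. These 7 genes overlapped between genotypes, and within the first slide row Vwf gave -0.11, Clec14a -0.12 and Eng -0.02. There the difference was 0.0061 for Tie1, 0.0081 for Nos3, 0.065 for Mmrn2 and 0.087 for Cd93.

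The 4 transcription factors were not alike. Sox17, a SoxF factor of arterial endothelium, had levels of -0.44, -0.79 and -0.38 in WT and of -0.36, 0.00 and -0.31 in FoxO1 +/-. Its genotypes were 0.02 apart on the main probe, with a difference of 0.31 (SE 0.15, limma adjusted p = 0.832), and overlapped on the second probe, with a difference of 0.37. Sox18, a SoxF factor of blood and lymphatic vessels, had levels of 0.88, 0.58 and 0.93 against 0.96, 1.18 and 1.00. It differed by 0.25 (SE 0.12, limma adjusted p = 0.826) with a gap of 0.03. When WT replicate 2 was left out, Sox17 differed by 0.18 and Sox18 by 0.15, and within the first slide row by 0.17 and 0.16. The remaining SoxF gene, Sox7, had levels of 0.31, -0.28 and 0.23 in WT and of -0.31, -0.19 and -0.13 in FoxO1 +/-. WT replicate 2 lay among the FoxO1 +/- values, and the other WT arrays lay above them. Sox7 was the only pan-endothelial gene with a lower mean in FoxO1 +/-, at -0.30 (SE 0.17, limma adjusted p = 0.866), and leaving out WT replicate 2 moved it to -0.48, leaving out WT replicate 1 to -0.18. Erg, the ETS factor that maintains endothelial identity, differed by 0.15 (SE 0.08), with 0.24 on its second probe, and overlapped.

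Nor did the 4 tip cell genes share a direction. Esm1, a secreted proteoglycan made by tip cells under VEGF, had levels of 0.32, 0.08 and 0.04 in WT and of -0.59, -0.45 and -0.53 in FoxO1 +/-. All 3 FoxO1 +/- values lay below all WT values, with a gap of 0.49. Its means were 0.14 ± 0.15 and -0.52 ± 0.07 (SD, n = 3 each). The difference of -0.67 (SE 0.10) leaves FoxO1 +/- at 63.0% of WT, and the limma adjusted p of 0.310 was the smallest of the 32 members but did not pass. Leaving out 1 array at a time gave -0.72 to -0.58, and the first slide row gave -0.74.

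Apln, the ligand apelin, which tip cells secrete, had a difference of 0.35 (SE 0.15, limma adjusted p = 0.820), with a WT mean of 1.49 ± 0.26 and a FoxO1 +/- mean of 1.84 ± 0.13 (SD, n = 3 each) and overlapping values. Its receptor Aplnr differed by 0.18 (SE 0.12) and Nrp1, a co-receptor of VEGF, by 0.08 (SE 0.09), both with overlap. Within the first slide row Apln gave 0.22, Aplnr -0.05 and Nrp1 0.03. To set the tip cell genes against the rest of the endothelial signal, the median log2 level of the 22 pan-endothelial genes was subtracted on each array. On that scale Esm1 was at -1.63, -1.81 and -1.92 in WT and at -2.60, -2.61 and -2.70 in FoxO1 +/-, a difference of -0.85 without overlap. On the same scale Apln differed by 0.16, Aplnr by -0.0037 and Nrp1 by -0.10, each with overlap. No test was applied to these relative values.

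**Figure D3:**
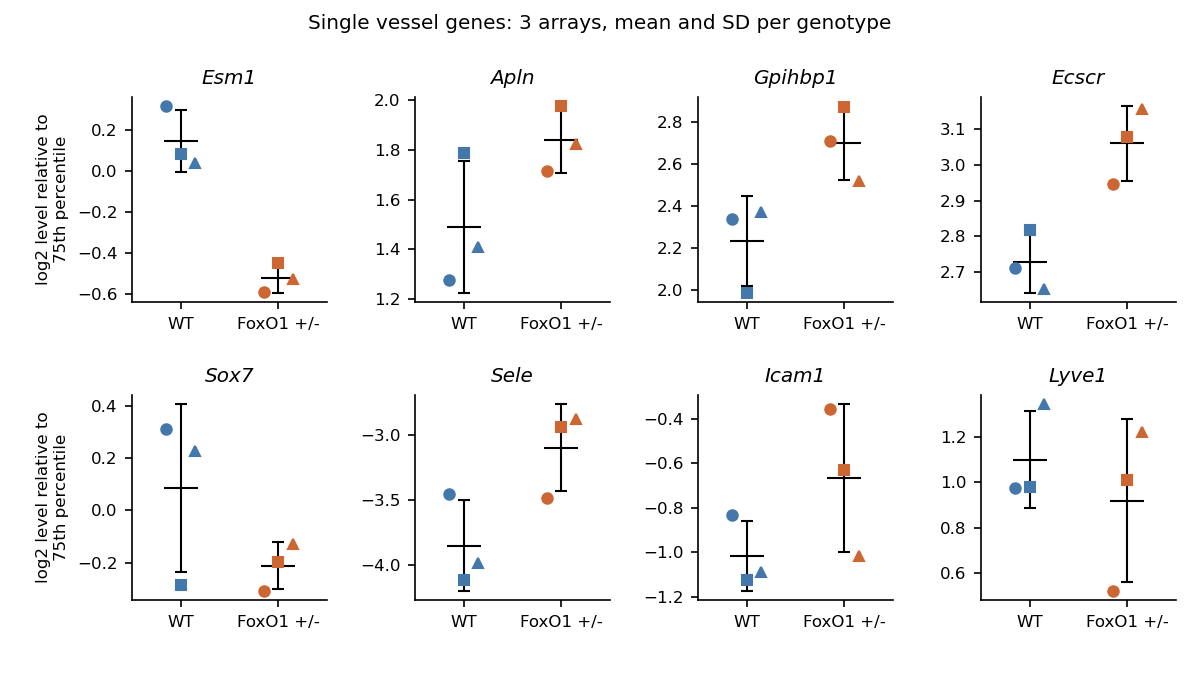
Log2 level relative to the array's 75th percentile (vertical axis) of 8 vessel genes on 3 WT and 3 FoxO1 +/- arrays, with 1 point per array, the mean as a line and the SD as a bar. The Esm1 values of the genotypes are separate, at 0.04 to 0.32 in WT and -0.59 to -0.45 in FoxO1 +/-, whereas the Lyve1 values overlap.

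Of the 5 adhesion molecules that capture leukocytes, 4 had higher means in FoxO1 +/- and Selp had a lower one, with a median difference of 0.24. Sele, the selectin that endothelium makes on activation, had levels of -3.45, -4.11 and -3.98 in WT and of -3.48, -2.93 and -2.87 in FoxO1 +/-. FoxO1 +/- replicate 1 fell just below WT replicate 1, and the other FoxO1 +/- arrays lay above all WT arrays. The Sele difference of 0.75 (SE 0.23) was a ratio of 1.69, the largest among the members, with a limma adjusted p of 0.667. It was 0.37 within the first slide row, where only FoxO1 +/- replicate 1 stands, and 0.57 relative to the pan-endothelial median. The Sele signal was weak on all arrays, and with normexp background correction the difference was 0.52. Icam2, an adhesion molecule carried by resting endothelium, had levels of 2.92, 2.83 and 2.99 in WT and of 3.13, 3.14 and 3.10 in FoxO1 +/-. The genotypes were 0.11 apart, and the difference was 0.21 (SE 0.07, limma adjusted p = 0.742), or 0.22 within the first slide row. Relative to the pan-endothelial median the Icam2 difference was 0.03, with overlap.

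Icam1, which is induced on activated endothelium and is also made by leukocytes and epithelium, had levels of -0.83, -1.12 and -1.09 in WT and of -0.35, -0.63 and -1.01 in FoxO1 +/-. FoxO1 +/- replicate 3 lay among the WT values. Its difference was 0.35 (SE 0.18, limma adjusted p = 0.846), between 0.19 without FoxO1 +/- replicate 1 and 0.52 without FoxO1 +/- replicate 3. The first slide row gave 0.66, above that span. Vcam1, the counterpart for lymphocytes and monocytes, differed by 0.24 (SE 0.17), with 0.23 on its second probe. Selp, the selectin stored in endothelial granules and platelets, differed by -0.07 (SE 0.13). Vcam1 and Selp values overlapped between the genotypes, and within the first slide row they gave 0.39 and -0.29.

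The lymphatic pair gave no separation of the genotypes. Lyve1, a hyaluronan receptor of lymphatic endothelium that some macrophages also carry, had levels of 0.97, 0.98 and 1.34 in WT and of 0.52, 1.01 and 1.22 in FoxO1 +/-. FoxO1 +/- replicate 1 was low, and the remaining FoxO1 +/- values lay inside the WT range. The Lyve1 difference was -0.18 (SE 0.20, limma adjusted p = 0.962), and it was 0.02 without FoxO1 +/- replicate 1 and -0.58 within the first slide row, where only that array stands for FoxO1 +/-. Prox1, the transcription factor that sets lymphatic identity, was well above background on 2 of the 3 WT arrays and 1 of the 3 FoxO1 +/- arrays, and so was not tested. Its levels of -5.60, -6.41 and -5.39 in WT and of -5.26, -6.29 and -6.11 in FoxO1 +/- lie near the background and overlap. Of 10 further lymphatic genes 8 were measured, 7 with higher means in FoxO1 +/-, a median difference of 0.13 and none past the adjusted threshold. Nrp2, a receptor for VEGF-C, differed by 0.30 (limma adjusted p = 0.625) without overlap, and Nr2f2, a nuclear receptor of veins and lymphatics, by 0.37 (limma adjusted p = 0.826) with overlap. Within the first slide row Nrp2 gave 0.19 and Nr2f2 gave 0.03. Nrp2 had 2 kept probes, and only the brighter is given here.

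A second list of 28 vessel genes that are not members had 24 higher and 4 lower means and a median difference of 0.12. Of these, 6 were higher without overlap, against 6.9% of all genes. None passed the adjusted threshold in limma, and 2 had an unadjusted p under 0.05, both higher in FoxO1 +/-, against 3.42% of all genes. Arhgef15 differed by 0.35 (limma adjusted p = 0.798), and She, an adaptor protein, by 0.28 (limma adjusted p = 0.782). Within the first slide row they gave 0.08 and 0.14. The 4 with lower means, named after their values were seen, were Unc5b, Klf2, Podxl and Slco2a1.

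Vessel gene levels also differed between arrays of 1 genotype. The mean log2 level of the 22 pan-endothelial genes was 1.60, 1.50 and 1.68 in WT and 1.68, 1.85 and 1.83 in FoxO1 +/-. FoxO1 +/- replicate 1 was close to WT replicate 3, and the 2 arrays of the second slide row were the highest. FoxO1 +/- replicates 2 and 3 held the highest value of 13 and 12 of the 32 members, and WT replicates 2 and 1 held the lowest value of 16 and 10. Within the first slide row, 22 of the 32 members had a higher value in FoxO1 +/- replicate 1 than the WT mean, with a median difference of 0.10 over all members and also over the pan-endothelial genes. Slide row and genotype can be told apart only through that single array.

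Markers of other cell types were read on the same arrays, and their part in the vessel gene values was not tested. All 8 adipocyte markers had higher means in FoxO1 +/-, 7 without overlap, against 6.9% of all genes. Their median difference was 0.84, and none was past the adjusted threshold in limma. Their mean log2 level ran from 2.91 to 3.84 over the WT arrays and from 4.08 to 4.51 over the FoxO1 +/- arrays. Retn, the adipokine resistin, differed by 1.56 (limma adjusted p = 0.369) and Lipe, the hormone-sensitive lipase, by 0.63 (limma adjusted p = 0.667), and within the first slide row by 1.24 and 0.41. WT replicate 2, which held the lowest value of 16 vessel genes, also held the lowest value of all 8 adipocyte markers. The same was true of 8 of the 10 pericyte and smooth muscle markers, 6 of the 8 further lymphatic genes and 14 of the 28 further vessel genes. For the 9 macrophage, 9 keratinocyte, 8 fibroblast and 6 platelet markers the numbers were 2, 2, 3 and 0. Of 10 macrophage markers 9 were measured, 8 with higher means, with mean levels of 3.78 to 3.84 in WT and 3.86 to 4.05 in FoxO1 +/- and a median difference of 0.14. Lyz2, lysozyme, differed by 0.25 (limma adjusted p = 0.798) and C1qb, a complement subunit, by 0.14 (limma adjusted p = 0.829), and within the first slide row by 0.11 and 0.19.

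The 10 pericyte and smooth muscle markers had 6 higher means and a median difference of 0.03, with mean levels of 1.32 to 1.67 in WT and 1.48 to 1.79 in FoxO1 +/-. Kcnj8, a potassium channel subunit of pericytes, differed by 0.73 (limma adjusted p = 0.415), or 0.48 within the first slide row, and Myh11, the smooth muscle myosin heavy chain, by -0.23 (limma adjusted p = 0.854). The 6 platelet markers had 4 higher means and a median of 0.14, with mean levels of -0.39 to 0.22 and -0.29 to 0.41. Gp9, a subunit of the platelet receptor for von Willebrand factor, differed by 0.47 and Treml1 by 0.38, both with overlap. FoxO1 +/- replicate 3 held the highest value of both, and within the first slide row they turned, to -0.099 and -0.024. Keratinocyte markers had a median of -0.02 over 9 of 10 genes, with mean levels of 6.24 to 6.50 in WT and 6.12 to 6.62 in FoxO1 +/-, a difference of -0.27 for the basal keratin Krt5 and of 0.22 for the cornified envelope protein Lor. Fibroblast markers had a median of 0.06 over 8 genes, with mean levels of 6.35 to 6.36 and 6.36 to 6.45, and differences of -0.18 for Thy1 and 0.16 for Col3a1. No marker gene of these lists passed the adjusted threshold.

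**Figure D4:**
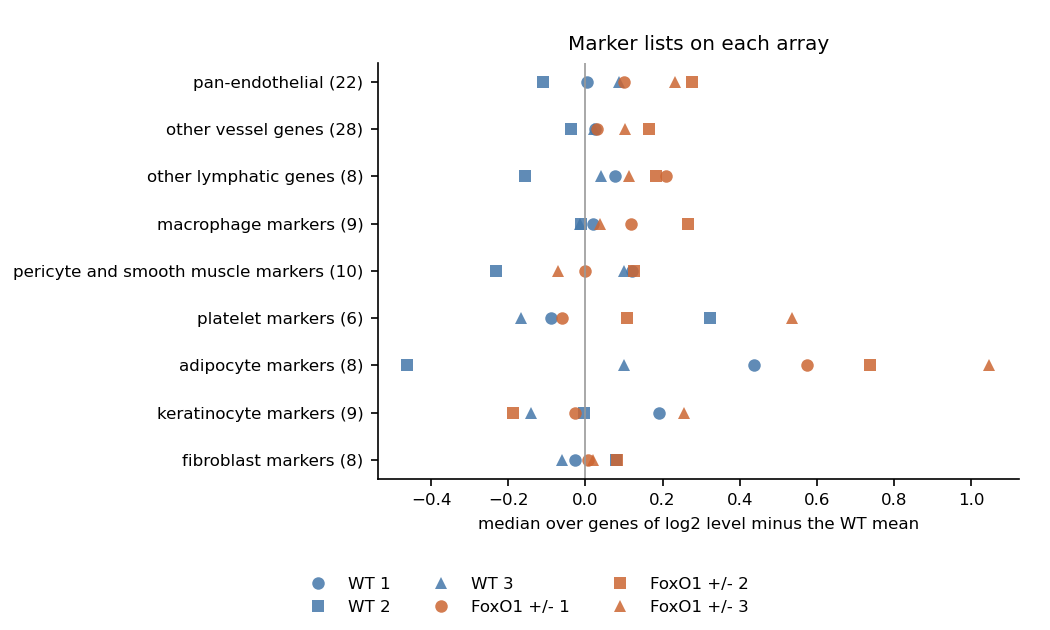
Median over each gene list of the log2 level minus the gene's WT mean (horizontal axis, log2 units), with 1 point per array (WT blue, FoxO1 +/- orange) and the number of genes in brackets. The pan-endothelial genes lie between -0.11 and 0.09 on the WT arrays and between 0.10 and 0.28 on the FoxO1 +/- arrays, and the adipocyte markers between -0.46 and 0.44 and between 0.58 and 1.05.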

How the data were processed

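Total RNA of 6 skin wound samples was read on 1-colour Agilent arrays. Per the file headers, the deposited intensity of each spot is the processed signal of Agilent Feature Extraction 10.7.1.1, and the submitters' processing notes give version 9.1. The authors' flags for spots well above background, saturated or outlying were used as deposited. The authors' value table matched all 59305 non-control spots within 0.5% and is linear and not centred, with column medians of 99.8, 103 and 112 in WT and 97.2, 98.9 and 82.4 in FoxO1 +/-. The log2 signals of a probe's spots were averaged. From each such value the 75th percentile of these values on the array was subtracted (899 to 1299 on the linear scale). A probe was kept if all arrays of either genotype read it well above background. A probe counted as well above background on an array where a share of at least 0.5 of its spots was. Accessions were named through RefSeq (GRCm38.p6), which gave 26564 named probes of 55645 with a value on every array, and the kept probe with the highest mean level stood for its gene. All 16411 genes were fitted in R 4.3.3 with limma 3.58.1 (functions lmFit and eBayes, two-sided tests, no covariate), after the code was tested on simulated data, and tables and figures were made in Python 3.11.15. Array number limits the precision, since there are 3 arrays per genotype.

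All members are named. Array values are printed for members whose genotypes do not overlap, for the 3 largest differences in each direction, for the 2 brightest members and for Esm1, Lyve1 and Prox1. Icam1 values were added after they had been seen. Of each other list, the 2 genes with the smallest unadjusted p are named, and Foxo1. For genes that are not members, only the brightest kept probe is given. Members and lists were chosen with earlier results of these data known. Alternatives were quantile normalization, normexp background correction, no filter on dim probes, the mean of a gene's probes, a replicate block, slide row, the value table, an adjusted p of 0.1 and each array left out. Normexp used the median signal because the files hold no mean signal, a choice made after seeing the data. Same-numbered WT and FoxO1 +/- arrays do not share an animal, and their numbers were not taken as pairs.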

Additional observations from a re-analysis of the deposited data

How the results depend on the processing

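No member passed the adjusted threshold under any alternative, an adjusted p of 0.1 included, and 23 of the 32 members kept their direction in all of them. Over all genes, 1 passed in limma, 2 with quantile normalization, 0 with normexp, 3 with no filter, 7 with slide row as a block, 4 within slide row 1, 28 without WT replicate 2 and 0 without any other array. With slide row as a block, and within slide row 1, the median difference was 0.10 over all members and over the pan-endothelial genes, -0.0083 over the tip cell genes and 0.37 over the adhesion molecules. In both of these Emcn was at -0.049, Vwf at -0.11, Eng at -0.024, Plvap at -0.056, Clec14a at -0.12 and Aplnr at -0.046. In both, FoxO1 +/- replicate 1 is the only array of its genotype beside WT arrays and is assumed to vary like the others, so their counts past the threshold, members included, say nothing about stability. Relative to the pan-endothelial median, Aplnr was at -0.0037 and Nrp1 at -0.10. Leaving out 1 array at a time left 12 to 21 members without overlap, with 11 over all arrays, 17 without WT replicate 2 and 21 without FoxO1 +/- replicate 1, since fewer arrays overlap less often. The median over all members then ranged from 0.16 to 0.24, over the pan-endothelial genes from 0.16 to 0.26, over the tip cell genes from 0.075 to 0.20 and over the adhesion molecules from 0.19 to 0.34. Clec14a then ranged from -0.019 without FoxO1 +/- replicate 3 to 0.22, Selp from -0.15 to 0.043 and Lyve1 from -0.33 to 0.016, the last 2 turning without FoxO1 +/- replicate 1. With the replicate block, 28 members were higher, the median was 0.20 and no gene passed. Deviations of same-numbered arrays from their group means correlated at -0.07, -0.14 and -0.30 over all genes. Those of differently numbered arrays correlated at -0.12 to 0.24. Deviations from a mean of 3 arrays are tied to each other, so these values cannot settle whether same-numbered arrays share an experiment. The counts of members without overlap have no value under either block, which gives no adjusted level per array. Signal over background limits Prox1, the only member below the filter, and also bears on dim members that passed it. With normexp background correction Sele was at 0.52, against 0.75 in the main fit.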
